A study of Mus musculus with 2 samples.

Results

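Strong isolated Runx1 peaks are Runx1 peaks with a high score that stand alone along the chromosome. A peak was counted as strong when the authors' peak caller gave it a score of at least 200. It was counted as isolated when its midpoint lay more than 20 kb from the midpoint of every other peak of the list. On chromosomes 1 to 19 and X, 692 of the 6792 peaks met both conditions. The set was thus chosen by the score and the distance measured in this same list, so scores, distances, widths and positions below describe the chosen peaks and are not tested.

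Runx1 is a transcription factor of the blood lineages. It contacts DNA through its Runt domain and binds more tightly as a heterodimer with Cbfb. The factor is needed for blood stem cells to form in the embryo and for B cells to pass through their early stages, where it acts beside Ebf1 and Pax5. It binds both at gene starts and at distal enhancers, and a distal site can lie far from the gene it controls. Its human counterpart is often rearranged in B-cell-precursor leukaemia.

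The list came from 2 libraries of BMiFLT3(15-3), a line of pro-B cells derived from a mouse B-cell-precursor leukaemia (BCP-ALL) and transduced with Runx1-ERt2. In this fusion a part of the oestrogen receptor holds Runx1 outside the nucleus until tamoxifen is given. The anti-Runx1 library was precipitated with a rabbit antibody to a peptide from the C-terminal end of the protein, and the control library with rabbit IgG from the same line, with 1 library in each arm. Per the labels' protocols, cells received 0.2 µM tamoxifen or ethanol for 24 h, and which of these each library had is not given in the sources used here. The peaks do not tell Runx1-ERt2 from the cells' own Runx1. With no replicate, no p-value is given and no value has an error between cultures. The depth of the libraries is unknown here. Positions are in mm9 and count from 1. They were not tied to genes or sequence, because the gene and promoter tables used here describe a later build, GRCm38.p6.

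Of all 6792 peaks, 1602 were strong (23.6%) and 3618 were isolated (53.3%), and the 692 with both properties made up 10.2%. Strong isolated peaks were 43.2% of the strong peaks (Wilson 95% interval 40.8 to 45.6%). The other 910 strong peaks had another peak within 20 kb. Seen from the isolated peaks, 19.1% were strong (17.9 to 20.4%), against 28.7% (27.2 to 30.3%) of the 3171 peaks with a neighbour within 20 kb. Such intervals hold counting error alone and take each peak as independent. Together the 692 regions covered 667 kb, which was 12.0% of the bases under all peaks.

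The share of isolated peaks was lower in each higher band of score. No other peak lay within 20 kb of 60.9% of peaks scoring 50 to 60, 58.6% of those scoring 60 to 100 and 52.3% of those scoring 100 to 200. Among strong peaks, it was 44.6% (42.0 to 47.2%, 612 of 1373) for scores of 200 to 500 and 34.9% (29.1 to 41.3%, 80 of 229) for scores of 500 or more. Among these 5 bands, standing alone was thus least common at scores of 500 or more. Counted from the top of the list, strong isolated peaks were 197 of the 500 highest scores (39.4%), 65 of the highest 200 (32.5%), 26 of the highest 100 (26.0%) and 10 of the highest 50 (20%). Of the 10 highest they were 3 (30.0%, Wilson 95% interval 10.8 to 60.3%), which broke this order on few peaks.

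Part of the neighbours that removed strong peaks from the set were very close intervals. Of the 910 strong peaks with a neighbour within 20 kb, 207 (22.7%) had the nearest midpoint within 2 kb. Over all 6792 peaks it was 718 (10.6%), all of them among the 3171 with a neighbour within 20 kb. Isolated peaks cannot have one so close, so these 2 shares are not like for like and show no excess in strong peaks. When intervals within 2 kb of each other were joined, 827 strong regions were isolated in place of 692. After this joining, which was chosen for the score bands after seeing the data, the isolated share was higher in every band. It was 69.3% for scores of 50 to 60, 54.3% for 200 to 500 and 45.6% (39.3 to 52.1%) for 500 or more, so the bands kept their order.

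**Figure D1:**
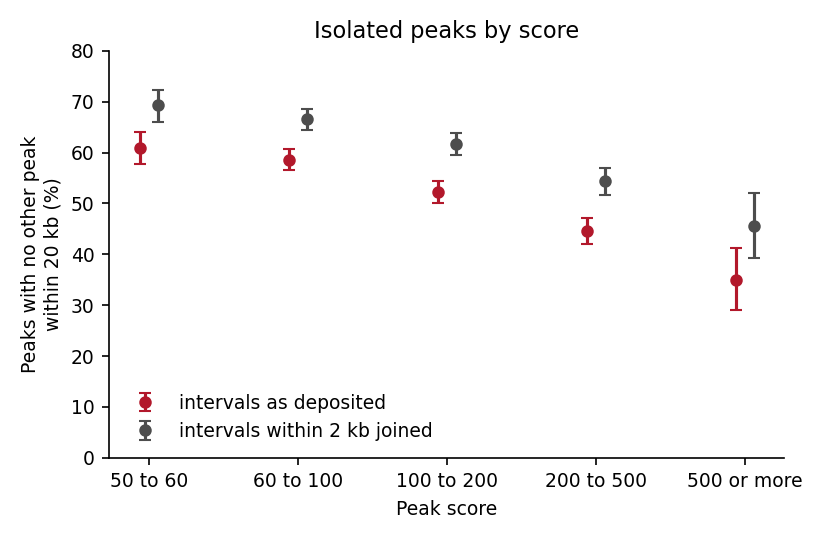
Share of peaks on chromosomes 1 to 19 and X with no other peak midpoint within 20 kb (y axis, %) by band of peak score (x axis). Red points are the intervals as deposited and grey points the list after joining intervals within 2 kb; bars are Wilson 95% intervals, and the 2 right-hand red points, 44.6% and 34.9%, are the strong isolated peaks.

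The median score of the strong isolated peaks was 299, the quartiles were 239 and 392, and the extremes 200.02 and 1703.61. The score is the authors' own value from their caller, on a scale that is not stated, and it was compared only within this list. Most of the set lay in the lower part of this range. A score under 250 was found in 222 peaks (32.1%), a score of at least 500 in 80 (11.6%) and a score of at least 1000 in 4. The other strong peaks had a median of 305 and quartiles of 244 and 435, and 149 of them (16.4%) scored at least 500. The 2 groups therefore overlapped over nearly their whole range, and the strong peaks with neighbours had the higher upper quartile.

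The highest-scoring isolated peak lay on chromosome 10 from 80791452 to 80792832. It scored 1703.61, was 1381 bp wide and ranked 3 in the whole list. Its nearest neighbour, 26.5 kb away, scored 92.76. The surroundings were nonetheless rich in Runx1 peaks, with 28 others within 500 kb, of which 9 were strong. Isolation at 20 kb and a busy neighbourhood at 500 kb thus occurred at the same site.

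Chromosome 2 held a pair of peaks among the 4 that scored over 1000. That from 35851814 to 35853053 scored 1177.67, with its nearest neighbour 97.9 kb away. The other, from 34793627 to 34795009, scored 1024.88 and had neighbours 44.7 kb below and 37.5 kb above it. On chromosome 11 the peak from 21543940 to 21544783 scored 1171.82 and was only 844 bp wide. In contrast to the chromosome 10 site, it had 4 other peaks within 500 kb, the highest of which scored 95.65.

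The next sites by score were spread over 5 chromosomes. On chromosome 1 the peak from 167609738 to 167610999 scored 967.23, and that from 185829217 to 185830494 scored 806.29. A peak on chromosome 15 from 76338377 to 76339564 scored 960.57, and its nearest neighbour, 46.9 kb away, was itself strong with 250.14. On chromosome 7 the peak from 25791287 to 25792370 scored 910.89, and on chromosome 8 that from 108815767 to 108816908 scored 849.8. The chromosome 8 peak was the most remote of the 10, with 238 kb to its nearest neighbour and no strong peak within 500 kb. A second chromosome 10 peak, from 75027412 to 75028907, scored 828.97 and had 19 other peaks within 500 kb.

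**Figure D2:**
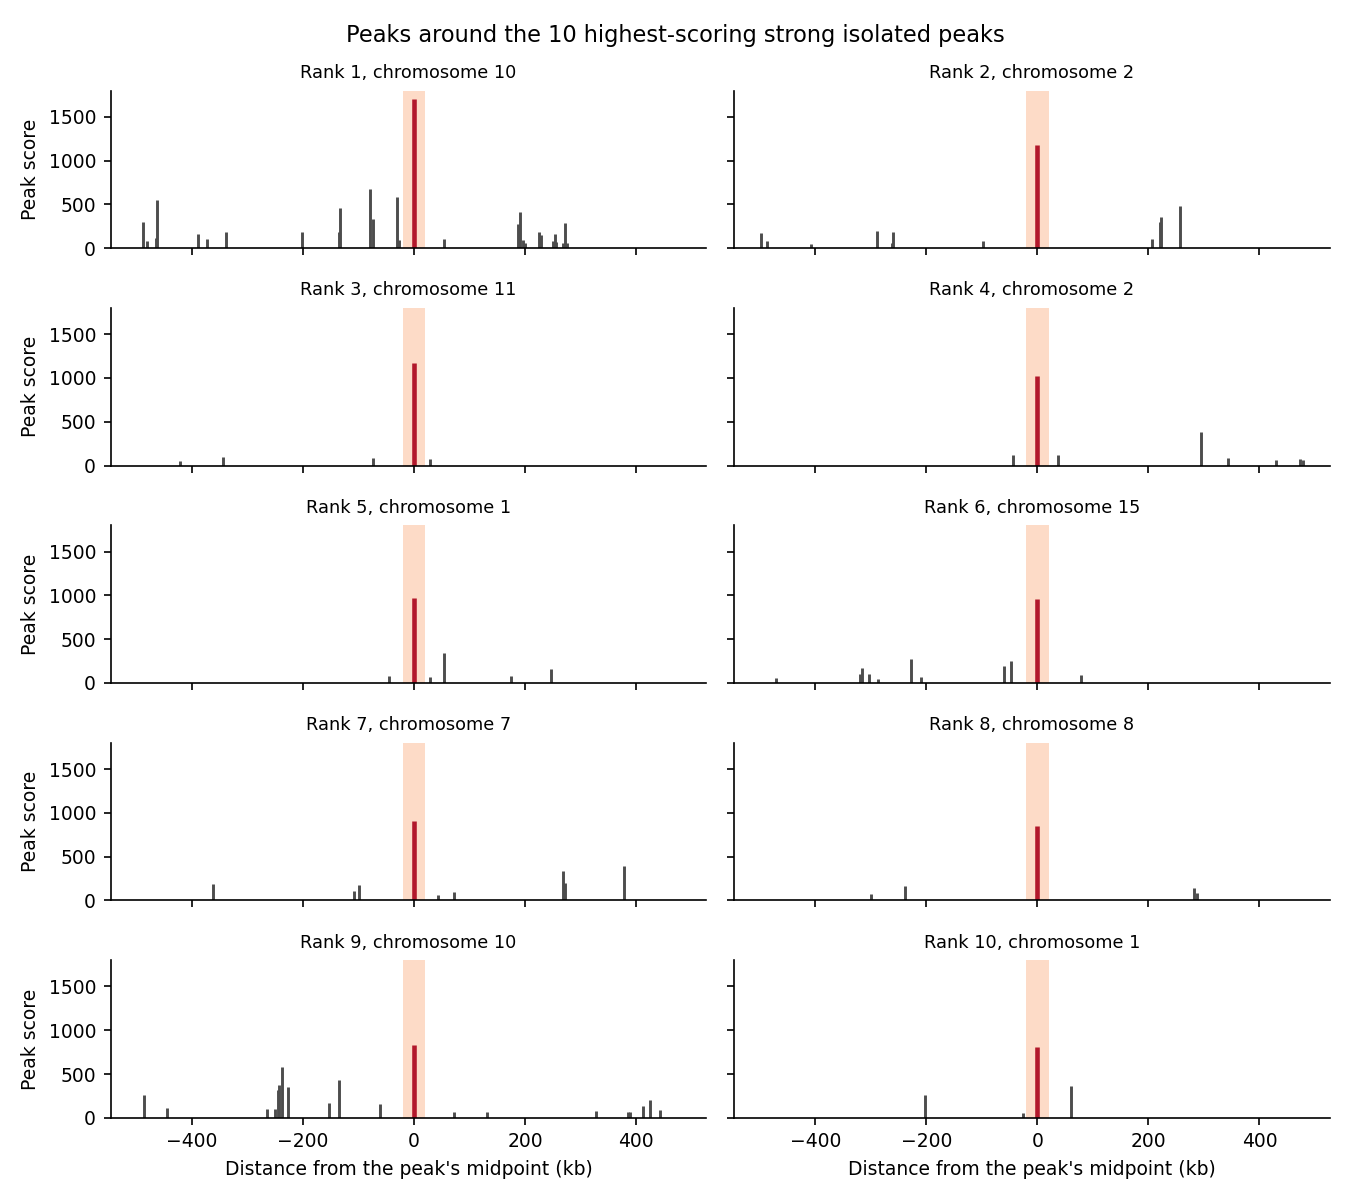
Peaks within 500 kb of the 10 strong isolated peaks with the highest scores, ordered by score; the x axis is the distance from the peak's midpoint in kb and the y axis the peak score. Red lines are the strong isolated peaks, grey lines other peaks and the shaded band 20 kb to either side; the first site (score 1703.61) has 28 other peaks in view, and the third (1171.82) has 4.

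At the score threshold the peaks inside and outside were alike in value. The lowest scores kept were 200.02 on chromosome 12 (120237503 to 120238394), 200.09 and 200.11 on chromosome 1, and 200.26 at a pair of sites on chromosome 15. The highest scores among isolated peaks left out were 199.47 on chromosome 8 (63435499 to 63436489), 199.33 on chromosomes 1 and 2, 199.29 on chromosome 5 and 198.49 on chromosome 17. Scores ran on across the threshold without a gap, and 58 of the 692 peaks (8.38%) scored under 210.

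Strong isolated peaks had a median width of 918 bp, with quartiles of 802 and 1082 bp and a range of 425 to 2000 bp. Other strong peaks had a median of 923 bp, with quartiles of 816 and 1079 bp. A width of 1000 bp or more was found in 34.2% of strong isolated peaks and 35.5% of other strong peaks. Isolated peaks under the score threshold were narrower, with a median of 747 bp, and higher-scoring peaks of this list are wider in general. Widths of strong peaks thus differed little with the presence of a neighbour.

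This held when peaks of like score were set side by side. Median widths were 866 bp in strong isolated peaks and 879 bp in other strong peaks for scores of 200 to 250. They were 930 and 924 bp in the same order for 300 to 400, and 1078 and 1093 bp for 500 or more. The largest difference among 5 bands was 27.0 bp, for scores of 400 to 500, with isolated peaks wider, whereas the quartiles of the isolated peaks in that band were 891 and 1095.5 bp. Across the 692 peaks, which are not replicates, Spearman's rho between score and width was 0.29, and it was 0.33 across the 910 others.

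**Figure D3:**
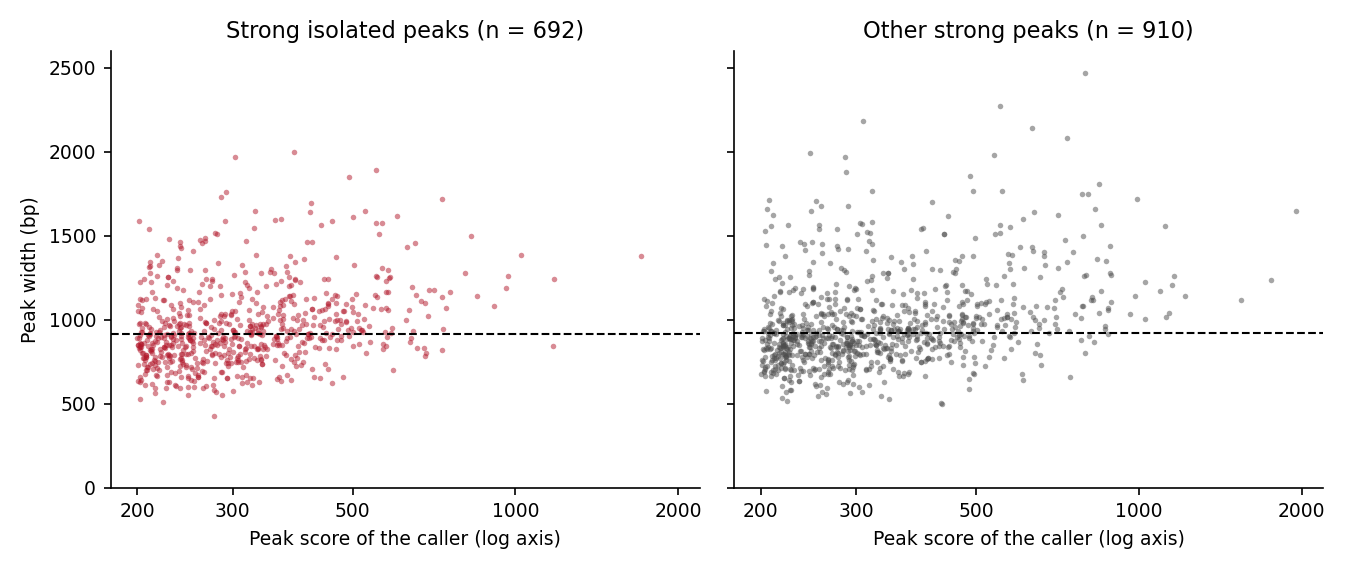
Peak width (y axis, bp) against peak score (x axis, log scale) for the 692 strong isolated peaks on the left and the 910 other strong peaks on the right; each point is 1 peak and the dashed line is the group's median width. The 2 clouds overlap, with medians of 918 and 923 bp and widths of 425 to 2000 bp on the left and 501 to 2470 bp on the right, and 4 points on the left and 12 on the right have a score of 1000 or more.

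The widest strong isolated peak, 2000 bp, lay on chromosome 19 from 10139562 to 10141561 and scored 389.65. Next were peaks of 1970 bp on chromosome 3 (87546321 to 87548290, score 302.65), 1892 bp on chromosome 5 (139924585 to 139926476, score 552.72), 1849 bp on chromosome 4 (62971387 to 62973235, score 492.45) and 1762 bp on chromosome 7 (134279601 to 134281362, score 291.22). None of these 5 was among the 10 highest scores. The narrowest was 425 bp wide, on chromosome 2 from 167827609 to 167828033, and scored 277.61. It was followed by peaks of 510 bp on chromosome 6, 529 bp on chromosome 7, 553 bp on chromosome 10 and 555 bp on X, which scored between 202.06 and 286.62. Only 14 strong isolated peaks (2.02%) were under 600 bp wide, much as in the other strong peaks (1.87%). The share was 16.1% for isolated peaks under the score threshold and 11.7% for all peaks.

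Most strong isolated peaks had another peak within 100 kb. The nearest other peak lay a median of 68.6 kb away, with quartiles of 33.5 and 146 kb. It lay within 50 kb for 274 peaks (39.6%) and within 100 kb for 435 (62.9%). At the other extreme, 37 peaks (5.35%) had no other peak within 500 kb and 19 (2.75%) none within 1000 kb. Isolated peaks under the score threshold lay farther from their neighbours, with a median of 84.1 kb, and 7.79% of them had none within 500 kb. Within the isolated part of the list, the strong peaks were thus the less remote.

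Within the strong isolated set, remoteness showed no clear relation to score or width. The median score was 303 for peaks 20 to 50 kb from their neighbour, 289 for 50 to 100 kb, 295 for 100 to 200 kb, 290 for 200 to 500 kb and 313 beyond 500 kb. Median widths in these bands lay between 909 and 927 bp. The highest single scores in these bands, from near to far, were 1703.61, 1177.67, 742.75, 849.8 and 668.18, in bands of 274, 161, 145, 75 and 37 peaks. Spearman's rho with distance was -0.04 for width and 0.00098 for score across the 692 peaks.

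Among the 5 peaks just inside the distance threshold, a pair on chromosome 1 were each other's nearest neighbours. They ran from 36318399 to 36319223 and from 36338345 to 36339350, lay 20.04 kb apart and scored 332.89 and 371.35. The others just inside were on chromosome 3 (37626944 to 37627788, 20.03 kb), chromosome 2 (84873969 to 84874945, 20.11 kb) and chromosome 17 (56958743 to 56959841, 20.14 kb). Just outside were strong peaks on chromosome 19 (7308913 to 7309854, 19.98 kb, score 344.21), chromosome 11 (19.73 kb), chromosome 8 (19.55 kb), chromosome 5 (19.48 kb) and chromosome 2 (19.32 kb). The last of these, from 152731808 to 152732487, scored 607.85, higher than any of the 5 just inside. In all, 61 strong isolated peaks had their neighbour nearer than 25 kb.

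The nearest neighbours of strong isolated peaks scored much as those of other isolated peaks did. Their median score was 104.12, against 104.94 for the neighbours of isolated peaks under the score threshold, 131 for those of the other strong peaks and 114 over all peaks. The neighbour scored under 100 for 325 of the 692 (47.0%), against 47.3% of isolated peaks under the threshold and 43.1% of all peaks. It scored at least 200 for 146 (21.1%), against 21.6% of isolated peaks under the threshold and 24.9% of all peaks. In 78 cases (11.3%) it scored at least as high as the peak itself, against 14.8% of other strong peaks. This share was 61.6% for isolated peaks under the threshold and 51.3% for all peaks, and it depends in part on the score threshold. For 98 peaks (14.2%) the nearest neighbour was another strong isolated peak, a share not computed for the other groups. Strong isolated peaks were 10.2% of the whole list. The neighbour's score bore no visible relation to the peak's own score (Spearman's rho = -0.04, n = 692).

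Gaps to the left and right were often unequal. The larger gap was over 3 times the smaller for 355 peaks (51.3%) and over 10 times for 130 (18.8%), and its median was 258 kb. The smaller gap lay on the side of lower coordinates in 352 of 692, so neither side was favoured. Only 40 peaks (5.78%) sat between 2 neighbours that were both within 50 kb. The median of the larger gap was 362 kb for isolated peaks under the score threshold and 186 kb over all peaks. The shares with unequal gaps were not computed for other peaks, so they do not set the strong isolated peaks apart.

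Strong neighbours were farther off. The nearest other strong peak lay a median of 231 kb away (quartiles 88.5 and 840 kb), and the nearest other strong isolated peak 528 kb away (199 and 1823 kb). A strong peak was found within 100 kb of 189 strong isolated peaks (27.3%), against 62.3% of the other strong peaks. It was 22.5% for isolated peaks under the score threshold and 40.5% for all peaks. Within 500 kb, strong isolated peaks had a median of 6 other peaks of any score, with an upper quartile of 9. These values were 9 and 13 for the other strong peaks, 4 and 8 for isolated peaks under the threshold, and 6 and 11 over all peaks. Of the strong isolated peaks, 171 (24.7%) had 10 or more, a share not computed for the other groups. The differences from the other strong peaks follow in part from the rule, which removes the nearest neighbours from the strong isolated set.

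**Figure D4:**
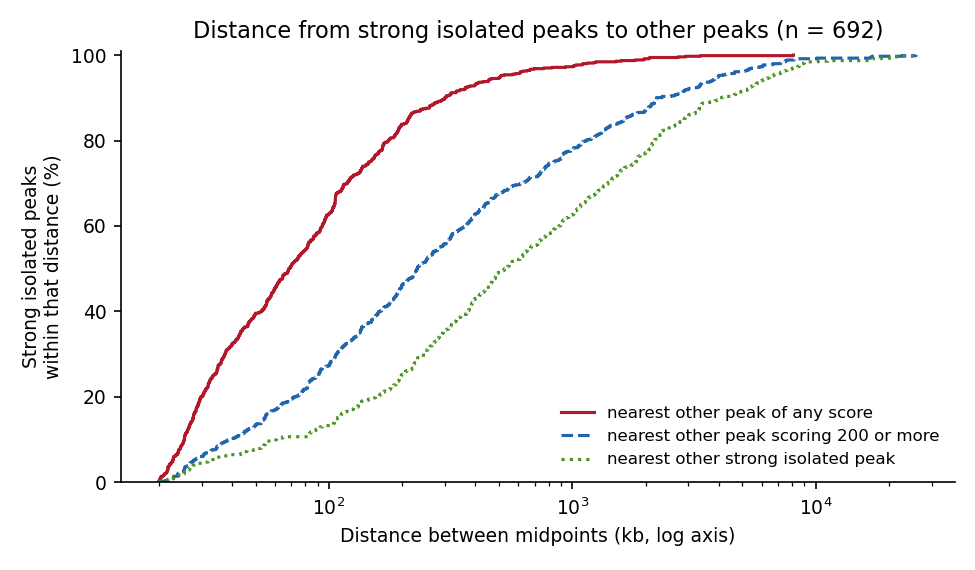
Cumulative share of the 692 strong isolated peaks (y axis, %) with another peak within a given distance between midpoints (x axis, kb, log scale). The solid line is the nearest peak of any score (median 68.6 kb), the dashed line the nearest peak scoring 200 or more (231 kb) and the dotted line the nearest other strong isolated peak (528 kb); all start above 20 kb by the rule.

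The most remote site was on X, from 139226524 to 139227078, with empty stretches of 8110 kb below and 8270 kb above. It scored 286.62 and was 555 bp wide. The most remote autosomal site was on chromosome 2 from 136301222 to 136301939, where the score was 313.03 and the nearest peak was 3366 kb away. A 1487-bp peak on chromosome 12 from 60307165 to 60308651 scored 266.16 and had 2926 kb on its nearer side and 9999 kb on the other. Next to it in distance was the X peak from 17128671 to 17129386, at 2720 kb.

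Among these remote sites the chromosome 15 peak from 50495872 to 50496798 had the highest score, 500.98, with 2085 kb to the nearest peak. On chromosome 9 the peak from 92281465 to 92282347 (score 310.3) stood 2065 kb from its neighbour. Distances were 1978 kb for the chromosome 8 peak from 28362885 to 28363743 (score 364.51) and 1964 kb for the chromosome 16 peak from 98185035 to 98185941 (score 224.14). The chromosome 16 site was the last peak of its chromosome and had a neighbour on 1 side only. The 10 were completed by X peaks at 1809 and 1589 kb. None of the 10 most remote sites was among the 10 strongest.

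Strong isolated peaks occurred on all 20 chromosomes. Density was taken per Mb between the outermost peaks of a chromosome. It was highest on chromosome 19, with 0.449 per Mb (exact Poisson 95% interval 0.294 to 0.658, 26 peaks), chromosome 17, with 0.425 (0.302 to 0.581, 39 peaks), and chromosome 11, with 0.422 (0.314 to 0.557, 50 peaks). Chromosome 2 held the largest number, 63, at 0.353 per Mb. The lowest autosomal values were 0.155 on chromosome 13 (0.0917 to 0.245, 18 peaks), 0.184 on chromosome 14 and 0.188 on chromosome 18. Peaks of any score were also sparsest among autosomes on chromosome 13, at 1.83 per Mb, and densest on chromosomes 11 and 19, at 4.55 and 4.27 per Mb. As a share of the chromosome's peaks, strong isolated peaks were 8.45% on chromosome 13 (Wilson 95% interval 5.41 to 12.96%), 10.5% on chromosome 19, 11.9% on chromosome 17 (8.79 to 15.8%) and 9.28% on chromosome 11, with overlapping intervals.

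The number of strong isolated peaks largely followed the number of strong peaks. Across the 19 autosomes Spearman's rho was 0.95 with the number of strong peaks, 0.88 with how many protein-coding genes the GRCm38.p6 table lists and 0.76 with the span. Strong isolated peaks are a part of the strong peaks, so a high rho with these is largely built in. The points share the list and are not replicates. By the rule, a denser list leaves fewer peaks isolated. The isolated share of a chromosome's strong peaks tended to be lower on chromosomes with more peaks per Mb (rho = -0.56 across 19 autosomes). Whether peak density accounts for the differences between chromosomes was not tested. The isolated share ranged among autosomes from 52.9% on chromosome 13 (36.7 to 68.5%, 18 of 34) to 26.3% on chromosome 15 (17.7 to 37.2%, 20 of 76). Chromosome 7 had the next lowest share, 34.6% (26.9 to 43.3%, 44 of 127). The interval of chromosome 15 lay below the 42.9% found over all autosomes, though chromosome 15 was singled out among 19.

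**Figure D5:**
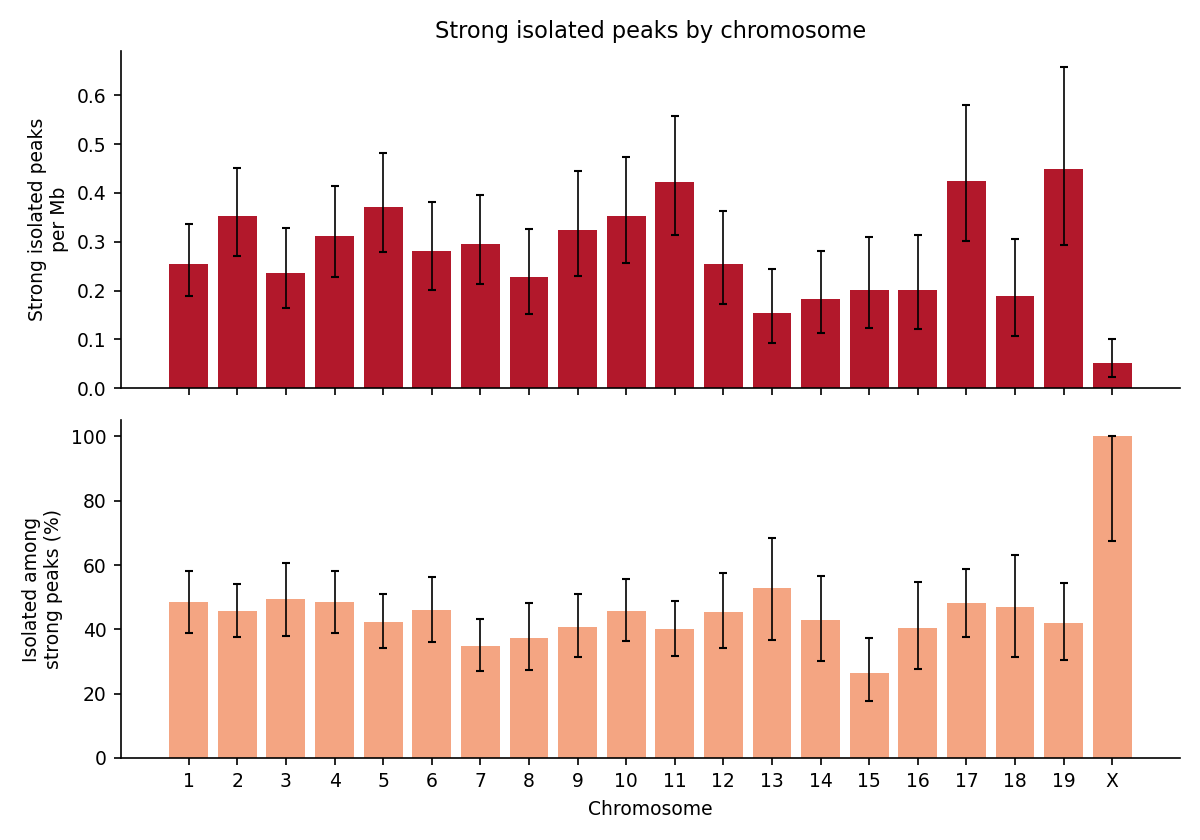
Strong isolated peaks by chromosome (x axis): upper panel, number per Mb between the outermost peaks, with exact Poisson 95% intervals; lower panel, share of the chromosome's strong peaks that were isolated (%), with Wilson 95% intervals. Chromosomes 19, 17 and 11 have the highest density (0.449, 0.425 and 0.422 per Mb), X the lowest (0.0511), and chromosome 15 the lowest share (26.3%).

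The X chromosome had few strong peaks, and all 8 of them were isolated (Wilson 95% interval 67.6 to 100%). X had 0.0511 strong isolated peaks per Mb (0.0221 to 0.101) and the autosomes 0.288 (0.266 to 0.310), a ratio of 0.178 (exact 95% interval 0.0764 to 0.352). For all strong peaks the ratio was 0.0762 (0.0329 to 0.151), and for all peaks 0.101 (0.0739 to 0.136, 45 peaks on X). The interval for strong isolated peaks covers the value for all peaks and lies just above that for all strong peaks. Density on X was low in each of these groups, so it was not particular to strong isolated peaks. Isolation was common on X at any score, with 41 of its 45 peaks (91.1%) isolated, against 53.0% of autosomal peaks.

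The highest X score was 372.37, from 11422483 to 11423571, where the peak was 1089 bp wide. Scores of 299.37 (98928769 to 98929822) and 231.42 (99232105 to 99232857) belonged to a pair 303 kb apart, the closest strong peaks on X. The remaining scores were 286.62 at the most remote site above, 282.57 (91736072 to 91737049), 235.87 (156120970 to 156121574), 226.53 at the site from 17128671, and 206.93 (20508904 to 20509581). Median values on X and on the autosomes were 259 and 299.9 for the score, 734.5 and 919 bp for the width, and 1043 and 67.9 kb for the distance to the nearest peak. No strong peak lay between the X sites ending at 20509581 and starting at 91736072, over 71.2 Mb that held 14 weaker peaks.

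Along the chromosomes, strong isolated peaks lay more often towards the end with the higher coordinates, as did peaks in general. The last 20% of each chromosome's span held 213 of them (30.8%, Wilson 95% interval 27.5 to 34.3%), against 29.7% of the other strong peaks and 28.5% of all peaks. The 20% from 20 to 40% of the span held the smallest number, 95 (13.7%), against 14.9% of other strong peaks and 15.8% of all. In each of the 5 steps of 20%, the shares of isolated and other strong peaks differed by less than 3 percentage points.

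On the scale of 1 Mb the set was thinly spread. Of 2557 stretches of 1 Mb, 509 held a strong isolated peak. In 367 there was 1, in 110 there were 2, in 25 there were 3 and in 7 there were 4 or more. In 47 stretches it was the only peak. Stretches with 10 or more peaks of any score held 187 strong isolated peaks (27.0%), against 46.8% of the other strong peaks and 32.4% of all peaks. These 187 thus lay in the densest parts of the peak map, each with a local gap of over 20 kb to either side.

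The largest number in 1 stretch was 5, on chromosome 17 from 34000001 to 35000000 and on chromosome 2 from 167000001 to 168000000. These stretches differed in what surrounded the isolated sites. On chromosome 17 the 5 were all the strong peaks among 6 peaks in all, and the highest scored 437.39. On chromosome 2 they were 5 of 8 strong peaks among 17 peaks, with a highest score of 385.13. Next by number and score were stretches with 4 each, on chromosome 17 from 87000001 to 88000000 (highest score 636.02), on chromosome 2 from 33000001 to 34000000 (588.94) and on chromosome 17 once more, from 5000001 to 6000000 (476.45). These 5 were taken from the 7 stretches with 4 or more, with ties in number broken by the highest score.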

How the data were processed

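Chromatin immunoprecipitation and sequencing had been done on 1 anti-Runx1 library and 1 IgG library. Per the submitters' processing notes, CASAVA 1.8.2, Bowtie 0.12.8, MACS 1.4.01 and build mm9 were used; the settings are not stated there. The authors made 1 peak list, whose header names Runx and IgG. It is read here as Runx1 immunoprecipitation over the IgG control, and its deposited score as the caller's value for each peak. Library depth is unknown here, and how duplicates were removed or the control scaled is not stated in the labels. The 3 peaks on unplaced contigs could not be members.

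Distances were taken between midpoints. Wilson and exact Poisson 95% intervals cover counting error only. The rule was tested on simulated data. The members, groups and bands were chosen with earlier results of these data known. Sites were named by rule: the 10 highest scores, 10 largest distances, 5 widest, 5 narrowest, 5 on each side of either threshold, all on X and the 5 fullest 1-Mb stretches. The gap on X and the shares of chromosomes 7 and 15 were named after their values were seen. Alternatives were scores of 150 and 300, distances of 10 and 50 kb, neighbours scoring 100 or more, edge distances, joining within 2 kb and leaving out peaks wider than 5 kb. The software was scipy 1.17.1, pandas 2.3.3 and numpy 2.4.6 under Python 3.11.15, with matplotlib 3.10.9 for the plots.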

Additional observations from a re-analysis of the deposited data

How the results depend on the processing

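In all, 8 results were recomputed under 8 other settings, and 2 shares under 1 chosen after seeing the data. A score of at least 150 gave 1083 strong isolated peaks, with a median score of 231 and a median width of 876 bp. A score of at least 300 gave 343, with medians of 393 and 966 bp and a density on X over the autosomes of 0.0444 (1 peak on X). At that score the median score minus that of the other strong peaks was -34.22 (95% interval -63.88 to 5.12). It was -6.75 (-33.53 to 14.09) at a score of 200. These intervals take each peak as independent, and the rule itself used the score, so they are not tests. A distance of 10 kb isolated 57.4% of strong peaks, with a median distance of 41.99 kb, and one of 50 kb isolated 26.1% (418 peaks) with a median of 117 kb. Counting only neighbours scoring 100 or more isolated 56.7%, with a median distance of 104 kb. Joining intervals within 2 kb isolated 53.0%, with a median width of 966 bp, and, as added after seeing the data, 69.3% of peaks scoring 50 to 60 and 45.6% of those scoring 500 or more. A stricter or looser rule leaves fewer or more peaks by construction. The other 47 of the 64 values from these 8 settings stayed within the 95% interval of the value under the rule as given, or within 1.5 times for the number of peaks. Leaving out peaks wider than 5 kb removed 1 peak and changed none of the 8 results, so its values among the 47 do not bear on stability. The median width of strong isolated peaks minus that of the other strong peaks lay between -25 and -2 bp under the 8 settings. At a score of at least 150 it was -25 bp, and its 95% interval (-50 to -3 bp) lay wholly below no difference. The intervals under the other settings included no difference, and all of them take each peak as independent. No paired analysis was possible because there was 1 library per arm, and for the same reason no replicate was left out. Without read numbers, weak neighbours below the caller's threshold may be missing from the list, and a peak called isolated here may have them.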

Other observations

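Counted from 1 strong isolated peak to the next along a chromosome, there were 672 intervals, with a median of 1.59 Mb and quartiles of 0.392 and 4.78 Mb. A median of 6 other peaks lay between such neighbours, and in 98 intervals (14.6%) there were none. After the gap on X described above, the longest interval was another on X, 39.99 Mb from 99232858 to 139226523, with 4 weaker peaks. Among autosomes, chromosome 16 had the longest interval, 32.4 Mb from 52035675 to 84457287, and it held 26 other peaks. It was thus not empty of Runx1 binding.

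Being nearest neighbours was mutual for 346 of the 692 strong isolated peaks (50.0%). In the other cases the nearest peak had a still closer neighbour of its own. The mutual share was not computed for other peaks, so it is no trait particular to this set. Per 100 protein-coding genes of the GRCm38.p6 table, strong isolated peaks numbered from 2.17 on chromosomes 7 and 13 to 4.42 on chromosome 12 among autosomes, and 0.828 on X. Chromosome 7 held the largest number of genes among all chromosomes, 2030. Of the 19 sites with no other peak within 1000 kb, 4 were on X and 3 on chromosome 1, and the other 12 were spread over 10 autosomes.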
